A study of Sus scrofa with 3 samples.

Results

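Among the names given to small RNA reads of pig psoas major muscle were 47 that the authors' pipeline matched to the pig genome and listed without a hairpin there. They were found by their name and by the group that the pipeline gave them. The group is a label of a listing, and folding was not examined here. Some members, such as hsa-miR-486-5p and sha-mir-24-1-p3, shared a locus with a porcine miRNA. A member's name is neither that of a predicted candidate nor that of a mature porcine miRNA in miRBase, and its group is "read in the genome, no hairpin there" in every library that lists it. Of 886 names that are neither, 50 met the rule, and bta-miR-410, cfa-miR-203 and oar-miR-323b were left out for their numbers, which belong to miRNAs of an imprinted cluster or of epithelium. The whole series held 1869 names and candidates. No measured level was used to choose the 47, and 86 further names that had this group in some listings but not in all were not members.

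The study sequenced the small RNA of psoas major, a muscle of the loin, from fattening pigs of 63, 98 and 161 d of age. The pigs were castrated males of a Landrace, Large White and Duroc cross, and the labels give no treatment. Each of the 3 libraries was made from the combined RNA of 6 pigs, 1 library for an age, and differences between ages and between libraries cannot be told apart. In the order of age, listed reads numbered 1464699, 2418187 and 2242716, and levels are given below as RPM, the reads scaled to 1e+06 listed reads of the library. Triplets of values below follow the same order of age. At this depth 1 read was worth 0.683, 0.414 and 0.446 RPM, and a name that was not listed may have had up to 2.05, 1.24 and 1.34 RPM, the level of 3 reads. Intervals are 95% intervals for counting error only, and PCR reads are not independent molecules. All 7 markers fixed for skeletal muscle were listed, with a summed level of 439927 to 507057 RPM. The markers of smooth muscle summed to 9415, 11873 and 27273 RPM and the liver marker miR-122 was at 7.51, 123 and 5.35 RPM. Under porcine names, miR-429 was the only 1 of 5 markers of epithelium that was listed (9.56 to 23.2 RPM), and the leukocyte marker miR-223 was not listed. The other markers of epithelium and miR-223 were listed under names of other species, such as bta-miR-200a (0, 262 and 119 reads) and bta-miR-223 (131, 342 and 289 reads). Whether cells other than muscle fibres contributed to the members was not tested.

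A miRNA is cut from a precursor that folds back on itself, and Dicer, the enzyme that makes the final cut, leaves a duplex of short strands from which 1 arm is loaded into an Argonaute protein. The seed, bases 2 to 8 of the loaded strand, pairs with target messages. Ribosomal RNA, transfer RNA and other abundant structured RNAs are also broken into pieces of miRNA length, and several entries of miRNA catalogues are known to have the same letters as such pieces. A catalogue name in a sequencing table therefore says which entry a read resembles, and a hairpin around the genomic match is what annotation rules ask for in addition.

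From general knowledge of these entries, 6 members have the letters of the large-subunit rRNA, 6 those of the 3′ end of a tRNA, 5 those of mitochondrial RNA, 3 those of the signal recognition particle RNA, and 2 each those of U2 snRNA and of a snoRNA. A further 11 are forms of conserved miRNAs such as miR-486, miR-378 and let-7, and 12 were not assigned. The rRNA members held most of the reads, and their genomic windows are printed here as the files give them, 5′ to 3′, with the representative read of the library in capitals.

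sha-mir-716b-p5, 98 d, chr6:868775-868887, minus strand: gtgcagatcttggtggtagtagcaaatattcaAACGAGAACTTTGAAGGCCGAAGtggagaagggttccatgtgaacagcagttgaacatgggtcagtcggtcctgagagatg
bta-miR-2487, 98 d, chr6:868204-868321, minus strand: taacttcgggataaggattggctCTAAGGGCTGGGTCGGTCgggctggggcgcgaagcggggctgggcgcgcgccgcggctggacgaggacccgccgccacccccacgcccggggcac
mmu-mir-6236-p3, 98 d, chr6:869158-869239, minus strand: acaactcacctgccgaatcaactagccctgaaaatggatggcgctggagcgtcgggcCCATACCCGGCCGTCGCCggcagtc
mmu-miR-6238, 98 d, chr6:871049-871086, minus strand: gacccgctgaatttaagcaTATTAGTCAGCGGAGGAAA

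The files do not name the genome build, and no gene annotation of it was used, so genes and exons at these places are not given. Coordinates are those the files list. On the plus strand, windows of 1 locus that differ between libraries had coordinates that follow their letters in 201 of 201 pairs of listings, over all names. On the minus strand this held for 18 of 400 pairs, with a median deviation of 16 bases, so coordinates on that strand locate a window only roughly and reads were compared by their letters. The representative reads of the other main members are shown with the seed in capitals, each at the library where it was most abundant. The porcine read of the same number is shown for miR-486 and miR-378. sha-mir-24-1-p3 also has porcine names of its number, whose reads are not shown.

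hsa-miR-486-5p, 98 d: tCCTGTACtgagctgccccgagc
ssc-miR-486, porcine: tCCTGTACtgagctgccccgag
hsa-miR-4492 and hsa-miR-4508: cGGGGCTGggcgcgcgcc
hsa-mir-5100-p5, 98 d: aTCCCAGCggtgcctcca
ssc-mir-4335-p3, all 3 libraries: cGAGCCCCacgttgggcgcca
bta-mir-1246-p3, all 3 libraries: aTTAAATGgatttttggagct
hsa-miR-3607-3p, 63 d: tGATACTGtaaacgctttctgatg
mmu-mir-3535-p3, 161 d: cCTCTAGAtagtcaagttctgatc
bta-mir-378-2-p5, 161 d: cTGTACTTggagtcagaaggct
ssc-miR-378, porcine: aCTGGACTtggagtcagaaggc
sha-mir-24-1-p3, 63 d: tGTCGATTggacccgccctccg

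The members made up a small part of each library, and that part was much smaller at 161 d. They held 5965, 9684 and 2052.5 reads in the order of age, which is 0.407% (0.397 to 0.418), 0.400% (0.393 to 0.409) and 0.0915% (0.0876 to 0.0955) of the listed reads by Wilson intervals. The intervals of the earlier libraries overlapped each other and that of 161 d lay below both. A single name set this difference. sha-mir-716b-p5 held 77.7% of the member reads at 63 d and 75.8% at 98 d, and without it, an alternative chosen after its values were seen, the shares were 0.0908%, 0.0967% and 0.0895%. Counts with decimals arise because a read that matches several places was divided among them.

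Most members were rare and were not seen at every age. Of the members 27 were listed at 63 d, 34 at the middle age, 31 at 161 d, and 18 in all 3 libraries. That is 38.3% of the members, beside 255 of 276 porcine names (92.4%). The other members were listed at 63 d alone (4), 98 d alone (10), 161 d alone (6), or in a pair of libraries (2 at 63 and 98 d, 3 at 63 and 161 d, 4 at 98 and 161 d). Only 16 members reached 10 reads in any library, and the other 31 stayed at 9 reads or fewer and together held 36.5, 56 and 41 reads. Of the 18 names listed at every age, 6 kept the same representative read at their leading place in the genome, against 190 of the 255 porcine names. Porcine names are far more abundant, so neither comparison is matched for depth, and neither was tested.

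**Figure D1:**
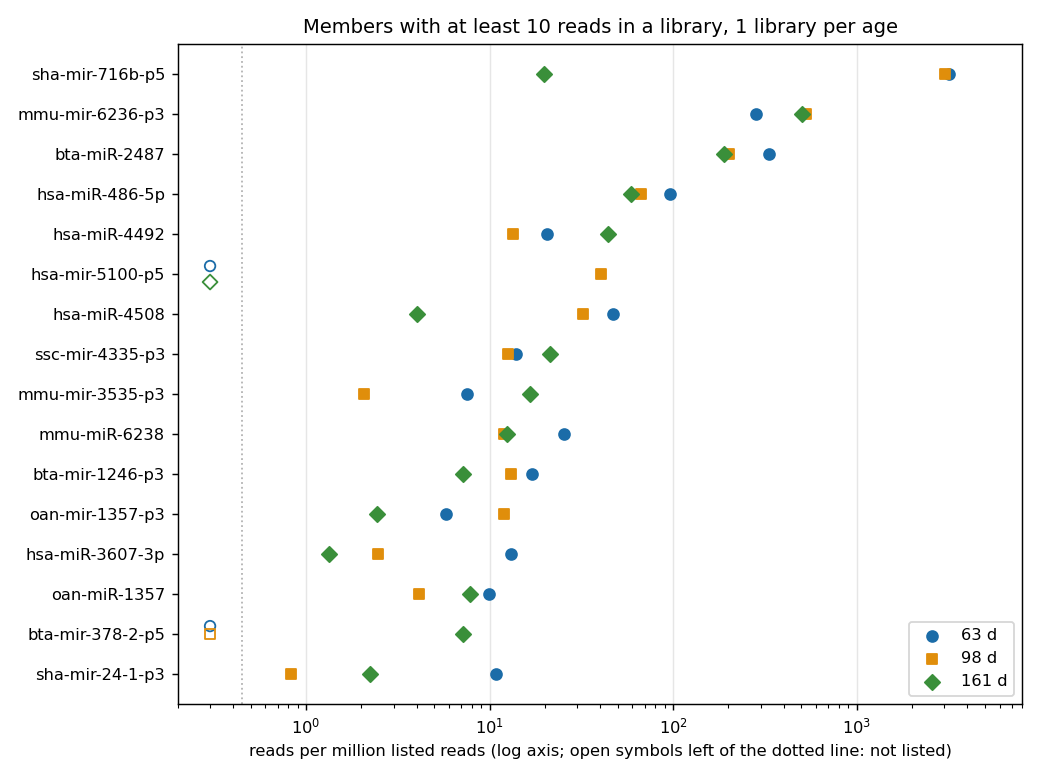
RPM (log axis) of the 16 members with at least 10 reads in a library; each symbol is 1 library of pooled RNA, and open symbols left of the dotted line mark a library that does not list the name. sha-mir-716b-p5 sits at 3165 and 3037 RPM at 63 and 98 d and at 19.8 RPM at 161 d, and hsa-mir-5100-p5 and bta-mir-378-2-p5 are each seen in 1 library.

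Between ages, names with at least 10 reads in a pair of libraries together were compared, and a ratio of RPM above 2 or below 0.5 was taken as past the fold. From 63 to 98 d, 16 members could be compared, of which 3 were higher and 5 lower past the fold, beside 26.8% of all 639 names and candidates. With an adjusted p under 0.05 as well, by an exact conditional binomial test of the 2 libraries with Benjamini-Hochberg adjustment over all of them, 1 was higher and 4 lower, beside 20.5% of all. From 98 to 161 d, 3 of 15 were higher and 4 lower, beside 26.6% of all 651, and the same 7 had an adjusted p under 0.05, beside 20.6%. From 63 to 161 d, 4 of 16 were higher and 7 lower, beside 35.0% of all 611, and 3 and 6 with the adjusted p, beside 28.8%. The median log2 ratios of the members were -0.52, -0.08 and -0.76 and those of all names 0.20, -0.29 and -0.13. These comparisons share libraries, and the test covers counting noise of 2 libraries, not the spread between pigs.

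Because members could pass the limit of 10 reads through the library in which they were high, these counts describe the members that could be compared and not all 47. A different scaling changed the balance of directions. The authors' clean reads were then used in place of the listed reads. From 63 to 98 d 4 of 16 members were higher and 3 lower, beside 45.1% of all names and candidates. From 63 to 161 d 5 of 16 were higher and 4 lower, beside 33.7%. With DESeq2 size factors 5 of 15 were higher and 4 lower from 98 to 161 d, beside 24.0%. The clean reads moved the median log2 ratio of all names to 0.75, -0.55 and 0.17.

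The members with large-subunit rRNA letters were the most abundant group. The 6 names held 5674, 9254.5 and 1731.5 reads, or 95.1%, 95.6% and 84.4% of the member reads. Large-subunit rRNA is a core part of the ribosome and is transcribed from many repeated gene copies. A stretch was set around the leading locus of sha-mir-716b-p5, the member with most reads over the 3 libraries. On the minus strand of chromosome 6, this stretch of 8683 bases (chr6:866649-875331) held loci of 7 members and of 18 other names. The 5 rRNA members found there at both 63 and 98 d were sha-mir-716b-p5, bta-miR-2487, mmu-mir-6236-p3, mmu-miR-6238 and hsa-miR-4508. hsa-miR-4492 was listed there at 161 d only, and oan-mir-150-p5 added 1.5 reads at 98 d and 2 at 161 d. This stretch gave 83.7%, 86.2% and 50.5% of all member reads. Of its 4993, 8350 and 1036 member reads, 4606.5, 7300.5 and 5 were those of sha-mir-716b-p5 itself. bta-miR-2487 had slightly more reads on chromosome 7 than in the stretch in each library. At 63 d mmu-mir-6236-p3 had 370.5 reads outside the stretch and 45 in it.

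The stretch as a whole was also lower at 161 d, though by less than its most abundant member. All names in it summed to 12369, 10876 and 6802 RPM, which is 1.24%, 1.09% and 0.680% of the listed reads. Its members summed to 3409, 3453 and 462 RPM, and the names that were not members to 8960, 7423 and 6340 RPM. At 161 d the latter sum held sha-mir-716b-p3 (1019 RPM), the other arm name at the locus of sha-mir-716b-p5. At 98 d it held the candidates PC-3p-5269_66 and PC-5p-16136_23 (624 and 44.2 RPM), listed on the stretch in that library only. sha-mir-716a-p3, a name of the same stretch whose pipeline group has a hairpin, had 2975, 2619 and 1842 RPM.

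**Figure D2:**
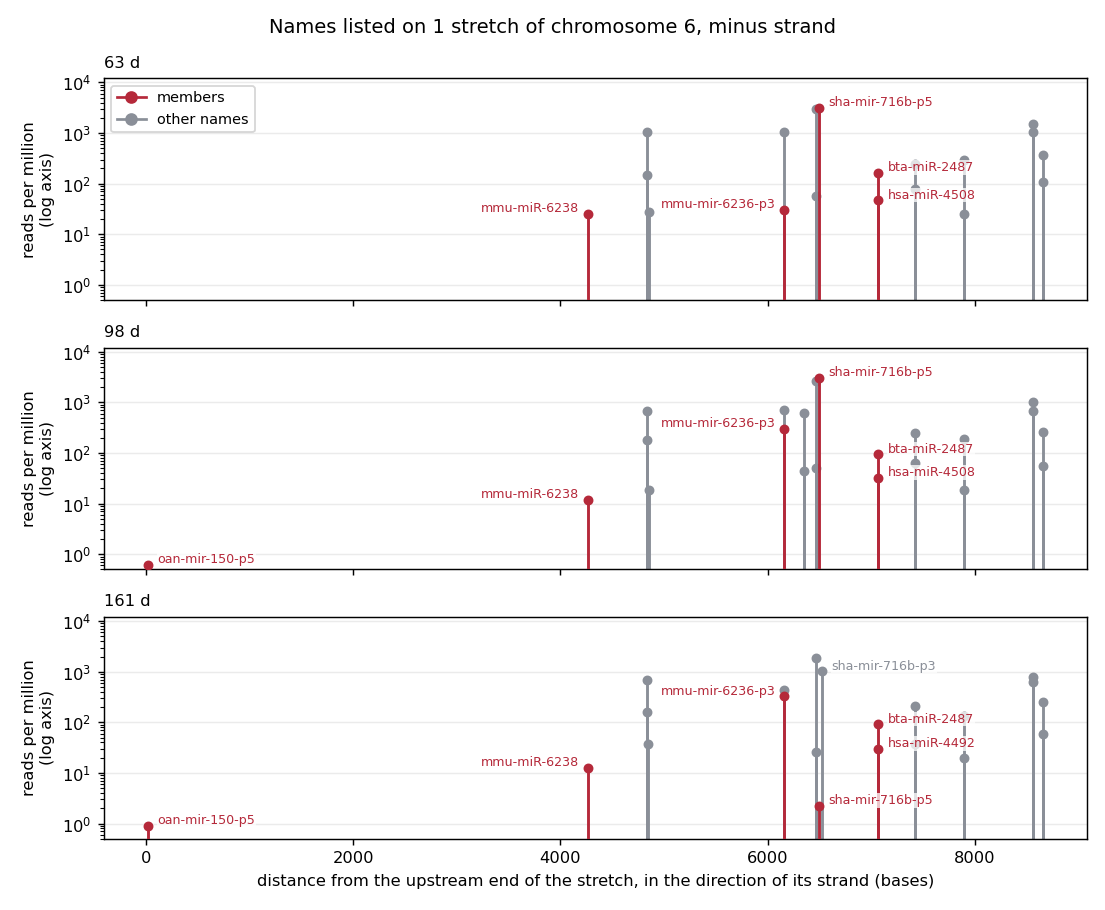
Level of every name on the chromosome 6 stretch, by distance in bases from its upstream end, with 1 panel per library (RPM, log axis); red marks members and grey other names. At 161 d sha-mir-716b-p5 is at 2.23 RPM and sha-mir-716b-p3, at the same distance, is at 1019 RPM.

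sha-mir-716b-p5 had 4635.5, 7345 and 44.5 reads, or 3165, 3037 and 19.8 RPM. The 63 and 98 d libraries were nearly level and the 161 d library stood far below both. From 98 to 161 d it was 153-fold lower (log2 ratio -7.26, adjusted p = 1e-300 by the exact conditional binomial test, the smallest value written), and from 63 to 98 d its ratio was 0.960 (0.925 to 0.996). The name of the other arm of the hairpin, sha-mir-716b-p3, which is not a member, moved the opposite way, with 17.5, 42 and 2320.5 reads. Summed over both arm names the hairpin had 4653, 7387 and 2365 reads (3177, 3055 and 1055 RPM), so that the ratio from 98 to 161 d was 0.345 (0.329 to 0.362, adjusted p = 1e-300). The hairpin was thus still lower at 161 d, by 1.53 on the log2 scale, and most of the 153-fold difference came with the change of arm name.

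The pieces of the 716b locus had nearly the same letters at the 3 ages, and the window around them had not. At 63 d the read covered bases 16 to 39 of a window of 97 bases, and at 98 d bases 33 to 55 of 113. Both were listed as the 5′ arm. At 161 d the read named p3 covered bases 34 to 54 of 58 bases and was listed as the 3′ arm. The 161 d read was CGAGAACTTTGAAGGCCGAAG, and the 98 d read was AACGAGAACTTTGAAGGCCGAAG. The former is held in full by the latter, which has 2 further bases at its 5′ end. What remained under sha-mir-716b-p5 at 161 d, 44.5 reads, differed in every case from the genome at the place where it was listed. Of these reads 25 were listed on chromosome 1, where this name also had 23 reads at 63 d and 28.5 at 98 d. Their representative read at 161 d lies letter for letter within the 98 d read above, so it matches the chromosome 6 window without a difference. With 11 loci sha-mir-716b-p5 had more places in the genome than any other member.

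mmu-mir-6236-p3 had 415.5, 1282.5 and 1125 reads, or 284, 530 and 502 RPM. Its ratio was 1.87 (1.67 to 2.09) from 63 to 98 d and 0.946 (0.873 to 1.03) from 98 to 161 d, so that neither passed the fold limit. The difference lay mainly in the listings on the chromosome 6 stretch, with 45, 714 and 729 reads (30.7, 295 and 325 RPM). Its 9 other loci together were listed with 370.5, 568.5 and 396 reads (253, 235 and 177 RPM). Of these loci, the representative reads on chromosomes 1 and 9 also lie within the chromosome 6 window printed above. Its read on the stretch also differed between libraries. At 63 d it was CGGCCGTCGCCGGCAGTC, bases 65 to 82 of a window that is longer at its 3′ end, and at 98 and 161 d it was CCATACCCGGCCGTCGCC, bases 58 to 75 of 82. Both arm names of this hairpin summed to 1568, 1503 and 1082 RPM, with ratios of 0.958 (0.909 to 1.01) and 0.720 (0.684 to 0.758).

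bta-miR-2487 was among the steadier members, with 487.5, 487.5 and 425.5 reads, or 333, 202 and 190 RPM. It was highest at 63 d, and its ratio of 0.606 (0.533 to 0.688) from 63 to 98 d did not pass the fold limit. Its reads were divided almost evenly between chromosome 6 (236 and 227 reads at 63 and 98 d) and chr7:11396160-11396255 on the minus strand (251.5 and 260.5 reads). mmu-miR-6238, listed at 1 locus, had 37, 29 and 28 reads (25.3, 12.0 and 12.5 RPM). It was 2.11-fold lower at 98 d than at 63 d (adjusted p = 0.007, exact conditional binomial test) and its levels at 98 and 161 d overlapped in their interval (ratio 1.04, 0.597 to 1.81).

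hsa-miR-4508 and hsa-miR-4492 carried the same read of 18 bases, under both names at 63 and 98 d and under hsa-miR-4492 alone at 161 d. hsa-miR-4508 had 68.5, 78 and 9 reads (46.8, 32.3 and 4.01 RPM) and was 8.04-fold lower at 161 than at 98 d (adjusted p = 3.59e-13, exact conditional binomial test). hsa-miR-4492 had 30, 32.5 and 99.5 reads (20.5, 13.4 and 44.4 RPM) and was 3.30-fold higher (2.24 to 5.19). The opposite directions met at 1 place. Bases 58 to 75 of the chromosome 6 window printed above for bta-miR-2487 were listed as hsa-miR-4508 at 63 d (68.5 reads) and 98 d (78 reads) and as hsa-miR-4492 at 161 d (67 reads). The 9 reads left to hsa-miR-4508 at 161 d were listed on chromosome 11. The reads of hsa-miR-4492 on chromosome 3 (chr3:41623019-41623043, plus strand) were 30, 32.5 and 32.5. Summed, the 2 names had 98.5, 110.5 and 108.5 reads, or 67.2, 45.7 and 48.4 RPM.

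**Figure D3:**
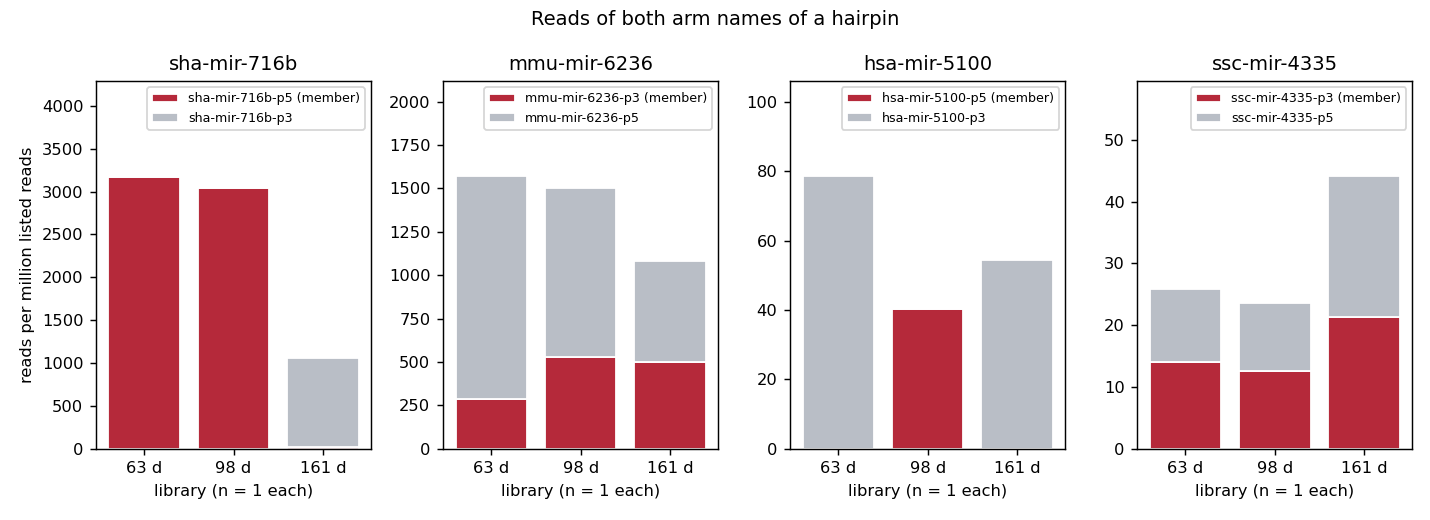
RPM of both arm names of 4 hairpins, stacked, with the member in red and the other arm name in grey; each bar is 1 library. For sha-mir-716b and hsa-mir-5100 the colour of the bar changes between libraries while the sum changes less.

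The members with tRNA 3′ ends had their highest sum at 98 d, with 24, 142.5 and 56.5 reads for the 6 names, and this again followed a name. tRNAs carry amino acids to the ribosome, and the letters CCA at their 3′ end are added after transcription and are not encoded in the gene. hsa-mir-5100-p5 was listed at 98 d only, with 97.5 reads (40.3 RPM). Taking 3 reads for a library that does not list it, the name was at least 19.7-fold higher than at 63 d and at least 30.1-fold higher than at 161 d. These ratios hold for the name and not for its read, and the name could be compared only through the library that lists it. The same read was listed as hsa-mir-5100-p3 at 63 and 161 d, on the plus strand of chromosome 6, where it was bases 14 to 31 of 31 (38547195 to 38547225). At 98 d it was bases 8 to 25 of 40 (38547201 to 38547240). Both arm names together were at 78.5, 40.7 and 54.4 RPM, with a ratio of 0.519 (0.390 to 0.682) from 63 to 98 d and 1.34 (1.02 to 1.77) from 98 to 161 d.

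ssc-mir-4335-p3 had 20.5, 30.5 and 48 reads (14.0, 12.6 and 21.4 RPM) over 10 loci, and its ratio of 1.70 (1.07 to 2.82) from 98 to 161 d did not pass the fold limit. Its arm name in lower case marks a predicted arm of a porcine hairpin and not a mature entry. Both hsa-mir-5100-p5 and ssc-mir-4335-p3 had representative reads that end in CCA. In the former the genome differed at 1 base within these letters, written A17C, with the genome's base first, the position counted from the 5′ end of the read, and the read's base last. At the locus with most reads of the latter the difference was A20C, also within them. Among the 107 distinct representative reads of the members 8 ended in CCA (7.48%), 1 of hsa-mir-5100-p5 and 7 of ssc-mir-4335-p3, against 3 of the porcine names' reads (0.800%). The share was higher, at 15.0%, among reads of the names with the members' group in some listings only, or left out for their numbers. hsa-mir-4454-p3 had 2, 8 and 8 reads, with a ratio of 2.42 (0.484 to 23.4) from 63 to 98 d, so no difference was detectable at this depth. mmu-miR-5100, mmu-mir-5100-p5 and bta-mir-2478-p5 had at most 5.5 reads in any library.

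Of the forms of conserved miRNAs, hsa-miR-486-5p held most reads. miR-486 is abundant in skeletal muscle and in red blood cells. The member had 140, 162 and 132 reads (95.6, 67.0 and 58.9 RPM) and all of them differed from the genome. Its ratio was 0.701 (0.556 to 0.885) from 63 to 98 d and 0.879 (0.693 to 1.11) from 98 to 161 d. The read is that of ssc-miR-486 with 1 further base at its 3′ end, and there the difference from the genome was G23C. Of its 2 loci, chr17:12191234-12191306 on the minus strand was also a locus of ssc-miR-486. With 57388, 93531 and 91747 reads the porcine name was far more abundant, and the member was 0.243% (0.206 to 0.287), 0.173% (0.148 to 0.202) and 0.144% (0.121 to 0.170) of both. The interval at 63 d lay above the others, which overlapped each other.

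bta-mir-378-2-p5 was listed at 161 d only, with 16 reads (7.13 RPM). By the same bound the name was at least 5.75-fold higher than at 98 d and at least 3.48-fold higher than at 63 d. Here too the ratios hold for the name and not for its read, and the comparison was possible only through the library that lists it. The same read stood under bta-miR-378, which is not a member, in all 3 libraries, and both names together were at 4008, 2273 and 2093 RPM. The other 9 forms, among them names of miR-320, miR-339, miR-92b, miR-125b and let-7, had at most 5 reads in any library.

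Few members had the seed of a porcine miRNA. The 4 that did were hsa-miR-486-5p, hsa-miR-320c, hsa-miR-339-5p and oan-miR-92b, with 450 reads in all, nearly all of hsa-miR-486-5p. 15 members carried the number of a porcine name, and no representative read was identical to that of a porcine name. The 47 members had 43 distinct seeds at their most abundant read. Each of 4 seeds was carried by 2 members, and among these GGGGCTG belonged to hsa-miR-4492 and hsa-miR-4508 and CCTCTCG to oan-mir-150-p3 and oan-mir-150-p5. ggo-mir-206-p5, which has the number of the muscle miRNA miR-206, had 3, 2 and 4 reads with the seed GACTGCT, while that of ssc-miR-206 was GTAATGT.

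Porcine names that share a number or a seed with a member mostly stayed within the fold limit, as did most of all names and candidates. Of 29 such names 27 could be compared in each pair. The 29 include ssc-miR-7, which has the digit of let-7 but not the seed of any member, and which stayed within the fold limit. From 63 to 98 d 1 was higher and 1 lower past the fold, from 98 to 161 d none was higher and 2 were lower, and from 63 to 161 d 1 was higher and 3 were lower. With an adjusted p under 0.05 as well the counts were 1 and 1, 0 and 1, and 1 and 2. Those that passed both included ssc-miR-206 (1897, 2717 and 1321 RPM, ratio 0.486 from 98 to 161 d) and ssc-miR-92a (21568, 10838 and 9260 RPM, ratio 0.429 from 63 to 161 d). The median log2 ratios of the 27 names compared were -0.03, -0.29 and -0.31. Of all names and candidates 26.8%, 26.6% and 35.0% were past the fold in these pairs. With the adjusted p as well the shares were 20.5%, 20.6% and 28.8%. The porcine names and all names were not matched for depth, and no difference between them was tested.

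Members from other RNA classes were rarer. U2 snRNA belongs to the spliceosome, and bta-mir-1246-p3 had 25, 31.5 and 16 reads (17.1, 13.0 and 7.13 RPM) over 8 loci, all without a difference from the genome. It was 2.39-fold lower at 161 than at 63 d (ratio 0.418, 0.209 to 0.814, adjusted p = 0.012, exact conditional binomial test), while the steps between did not pass the fold limit. snoRNAs guide chemical changes of other RNAs in the nucleolus, and hsa-miR-3607-3p had 19, 6 and 3 reads (13.0, 2.48 and 1.34 RPM). It was 5.23-fold lower at 98 d and had a ratio of 0.103 (0.0195 to 0.350) at 161 d, each against 63 d (adjusted p = 3.22e-04 and 2.37e-05, exact conditional binomial test). Its representative reads, on chr2:96866357-96866442, plus strand, ended at the same base in each library and had 24, 25 and 26 bases.

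The 5 mitochondrial members had 9, 15.5 and 4.5 reads together. hsa-miR-1973, cgr-miR-1973, hsa-mir-4485-p5 and ppy-miR-4484 had loci on the mitochondrial record, and cgr-miR-1973 and hsa-mir-1973-p5 shared a read at 98 d. The 3 names with letters of the signal recognition particle RNA, which helps to bring proteins to the endoplasmic reticulum, had 4, 1 and 0 reads. None of these names could be compared between ages.

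Of the 12 unassigned names, 4 reached 10 reads. mmu-mir-3535-p3 had 11, 5 and 37 reads (7.51, 2.07 and 16.5 RPM) and was lowest at 98 d, with ratios of 0.275 (0.0750 to 0.860, adjusted p = 0.033) from 63 to 98 d and 7.98 (3.13 to 26.0, adjusted p = 2.96e-07) from 98 to 161 d by the exact conditional binomial test. Its reads were divided between chr15:145943429-145943560, plus strand, and an unplaced scaffold. All names of this hairpin together had 31, 29 and 56 reads, and the ratio from 98 to 161 d was then 2.08 (1.31 to 3.38). oan-mir-1357-p3 (8.5, 29 and 5.5 reads) was highest at 98 d and oan-miR-1357 (14.5, 10 and 17.5 reads) was lowest there. They shared their 3 loci, and summed they had 23, 39 and 23 reads. sha-mir-24-1-p3 had 16, 2 and 5 reads and shared its number and its locus, chr10:31340332-31340423 on the minus strand, with ssc-miR-24-3p and ssc-miR-24-2-5p, but not their seeds. It was lower at 98 d than at 63 d, with a ratio of 0.0757 (0.00845 to 0.322, adjusted p = 3.27e-05, exact conditional binomial test), whereas ssc-miR-24-3p was at 1807, 2404 and 2406 RPM. mmu-miR-6538, with 9 reads at 98 d only, was spread over 5 loci.

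The representative reads of the members were shorter than those of porcine names. Their median length was 19 bases, with a range of 18 to 26, against 22 bases for the porcine names, and 21.5% had 18 bases, against 0.800%. Only 22.4% were of 21 to 23 bases, against 82.7%. The shortest reads, of 18 bases, included those of hsa-miR-4492, hsa-miR-4508 and mmu-miR-6238, and the longest, of 26, were found for sha-mir-716b-p5, mmu-mir-3535-p3 and hsa-miR-3607-3p. The median GC content was 50.0% against 47.8%, and 15.0% of the members' reads against 1.87% of those of porcine names had more than 70% GC. These traits were not particular to the members. For the 89 names with the members' group in some listings only, or left out for their numbers, the median length was 20 bases. Of their reads 16.6% had 18 bases, 38.9% had 21 to 23 bases and 13.4% had more than 70% GC. Among other-species names absent from the genome 16.4% of the reads had 18 bases. Of the members 28 had 1 locus in the genome and 19, or 40.4%, had 2 or more, against 12.7% of porcine names. These values are descriptions with no test, since reads of 1 locus overlap and are not independent.

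**Figure D4:**
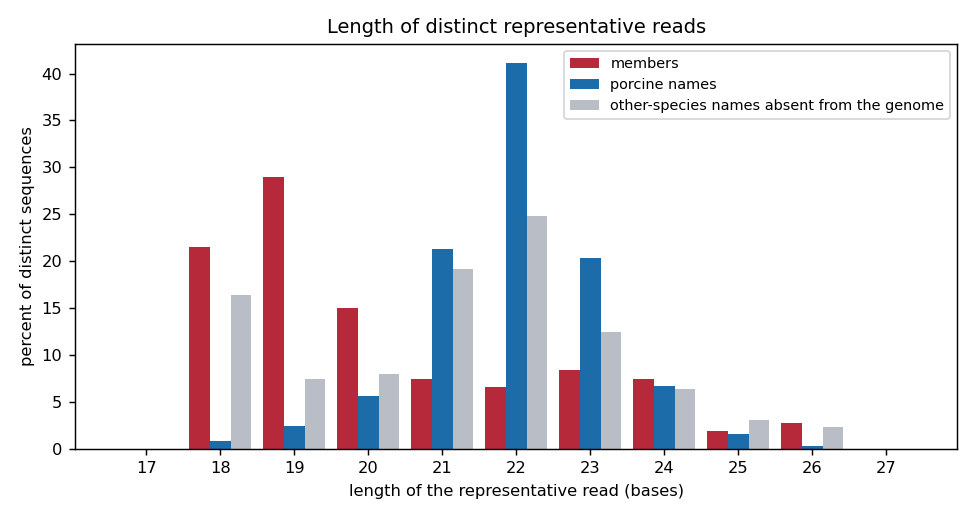
Length in bases of the distinct representative reads, as percent of 107 reads of members (red), and of the reads of porcine names (blue) and of other-species names absent from the pig genome (grey). The members' reads are most often of 18 and 19 bases and those of porcine names of 22 bases.

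The 47 members lay at 92 distinct loci, of which 8 were shared by 2 or more members and 25 were listed under a name outside the members as well. Of 102 combinations of a name and a locus, 31 were listed in all 3 libraries and 50 in 1 only. 21 representative reads of members were also carried by a second name in some library. This changed the accounting most for hsa-mir-5100-p5, hsa-miR-4508 and hsa-miR-4492, as described above. For sha-mir-716b-p5 the accounting changed mainly through overlapping reads that were not identical.

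Reads that differed from the genome were not spread evenly over the members. A difference is counted at the place where a read is listed, and such a read can match another place exactly. Together 11.1% (10.3 to 11.9), 11.8% (11.1 to 12.4) and 30.7% (28.7 to 32.7) of the member reads had at least 1 such difference at 63, 98 and 161 d, against 15.8%, 17.2% and 16.5% of the reads of porcine names. For the 89 names with the members' group in some listings only, or left out for their numbers, the shares were 61.6%, 71.1% and 70.5%. The members' interval at 161 d lay above those of the earlier libraries. Leaving out sha-mir-716b-p5, the member with most reads over the 3 libraries, gave 38.0%, 35.0% and 29.1%, so that the 161 d library then had the lowest of the 3 values. Over the 3 libraries, 13 members had no read with a difference, 16 had nothing else, and 18 lay between.

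For mmu-mir-6236-p3 the share followed the locus. Of its reads listed on the chromosome 6 stretch 0, 2.59% and 1.51% differed from the genome there. Of those listed on chromosome 9 it was 100%, 99.7% and 100%, and on chromosome 1 69.5%, 70.7% and 68.5%. The representative reads on chromosomes 1 and 9 lie letter for letter within the chromosome 6 window printed above. They therefore match the genome at that window and differ from it only where they were listed. The name as a whole had 38.8%. bta-miR-2487 (5.89%), hsa-miR-4508 (5.79%) and hsa-miR-4492 (1.23%) were low, and hsa-mir-5100-p5 (94.4%), bta-mir-378-2-p5 (84.4%) and ssc-mir-4335-p3 (79.8%) were high. All 9 reads of hsa-miR-4508 at 161 d differed from the genome at the place on chromosome 11 where they were listed. Their representative read is held without a difference in the chromosome 6 window printed above for bta-miR-2487.

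**Figure D5:**
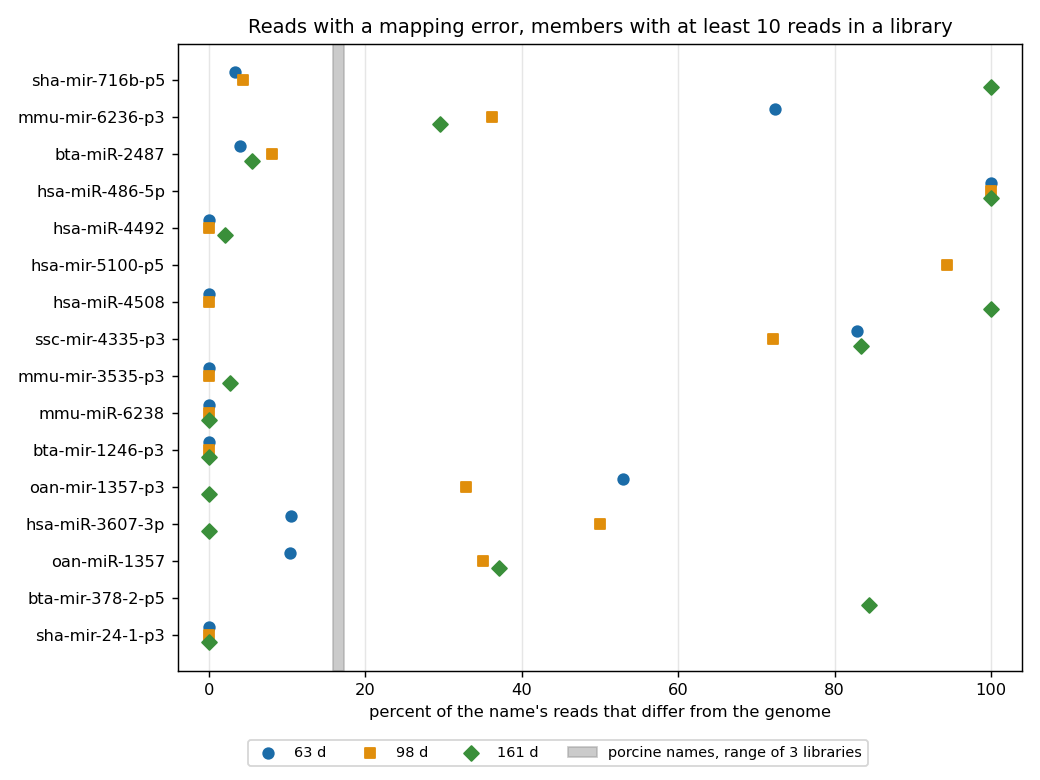
Percent of a name's reads that differ from the genome at the listed place, for the 16 members with at least 10 reads in a library, by library. The grey band is the range of porcine names over 3 libraries, 15.8% to 17.2%. hsa-miR-486-5p is at 100% in each library and mmu-miR-6238, bta-mir-1246-p3 and sha-mir-24-1-p3 at 0, and most other members lie outside the band.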

How the data were processed

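Small RNA libraries of psoas major were made from 3 pools of RNA, 1 pool of 6 pigs per age (63, 98 and 161 d), and mapped to ages by the sample titles. The study's text names TRIzol and the labels a Norgen kit for RNA isolation. Libraries were sequenced on a HiSeq 2000 and analysed by the authors with ACGT101-miR (version 4.2), which maps reads to miRBase 20.0 and to the pig genome. The deposited files give counts, unscaled, of how often the representative read at a locus was seen. They also give expected counts, in which the authors' pipeline shares out a read among all places it matches. These are given for all reads and for reads with at least 1 difference from the genome at the listed place. Neither kind of count is normalized. The files name no genome build, and chromosome names were taken from the order of its sequence records. Columns of other samples numbered 0. Columns of sequence letters were used as given, and no reference genome was used.

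The copies of the representative read exceeded the expected count in 18 of 56, 28 of 67 and 30 of 62 listings of members, so the values of a name are parts of divided reads and were summed over its loci. Overlapping windows on 1 strand were taken as 1 locus, by the listed coordinates, which are rough on the minus strand. RPM refer to all reads listed in a file. Expected counts were rounded for the exact conditional binomial test (two-sided, scipy 1.17.1), which compares 2 libraries at the share that their totals predict, with Benjamini-Hochberg adjustment over all names and candidates with at least 10 counts together. Candidates were matched between files by locus and arm. A library at 0 was set to 3 counts for a bound. Scaling factors for alternatives came from edgeR 4.0.16 and DESeq2 1.42.0. The test was run first on simulated counts with 200 changed names.

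The members and lists were chosen with earlier results of these data known. The RNA class of a member is from general knowledge of the entries and was assigned after values were seen. Every member with at least 10 counts in a library is described with its values, as are those with at least 5 loci, the longest and shortest (up to 3 each) and those that share a seed with a porcine name. Other members are given by counts and ranges, and a few of these, named where they shared a locus or read, were chosen after their values were seen. Leaving out a replicate, batches and pairing could not be examined with 1 library per age.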

Additional observations from a re-analysis of the deposited data

Results flagged for a closer look

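Reads outside the members' own names lay at the members' loci in the library where the member was low or not listed. Under the name sha-mir-716b-p3, 2289.5 reads were listed at loci of sha-mir-716b-p5 at 161 d, where the member itself had 44.5 reads. Under the name hsa-mir-5100-p3, 113 reads at 63 d and 119 reads at 161 d were listed at the locus of hsa-mir-5100-p5, which was not listed in these libraries and had 97.5 reads at 98 d. In both cases the values are above 3 reads, the limit set for a name that is not listed, and the part of the window given to the read was not tested.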

How the results depend on the processing

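No paired analysis was possible because each age had 1 library, and for the same reason no library could be left out. Of 60 results under an alternative, 31 stayed close to the value reported and 29 moved. The balance of higher and lower members turned with clean reads in 2 pairs of ages and with DESeq2 size factors in 1, as given with the counts in the results. It also turned from 63 to 98 d with at least 30 counts together (2 higher, 1 lower). From 98 to 161 d it turned with both arm names of a hairpin summed (4 higher, 3 lower). It was even from 98 to 161 d with edgeR scaling (4 and 4 of 15, beside 23.2% of all names). It was also even there with 1 locus per name (3 and 3 of 10, beside 25.3%). From 63 to 98 d it was even at the locus with most reads (3 and 3 of 14, beside 26.8%). Counts of members past the fold changed by over 1.5 times as follows: from 63 to 98 d from 8 to 3 with at least 30 counts together, to 5 with an adjusted p required as well and to 5 with 1 locus per name, from 98 to 161 d from 7 to 11 without a filter on low counts, and from 63 to 161 d from 11 to 6 with at least 30 counts and to 6 with 1 locus per name. With fewer or more names tested, the filters change these counts by construction. The members numbered 128 with the group required in at least 1 file and 107 as distinct sequences, and 9 were listed in all 3 libraries with at least 10 counts each and 11 by sequence. The share of listed reads was 0.0569%, 0.0395% and 0.0310% at 63, 98 and 161 d with 1 locus per name, 0.514%, 0.488% and 0.0759% at the locus with most reads, 0.434%, 0.425% and 0.109% with the numbers left out put back, and 0.145%, 0.210% and 0.0401% of clean reads. Without sha-mir-716b-p5 it was 0.0908% and 0.0967% at 63 and 98 d. The 161 d library had the lowest share under each of these, though only slightly so without that name (0.0895%). The share of reads that differ from the genome at the listed place was 38.0% and 35.0% at 63 and 98 d without sha-mir-716b-p5. Leaving out this name, the member with most reads over the 3 libraries, ended the excess at 161 d (29.1%). With 1 locus per name the shares were 22.8%, 38.0% and 34.3%. With both arm names of a hairpin summed, chosen after seeing the data, 6, 7 and 10 hairpins of members passed the fold. They were of 24, 23 and 24 tested, beside 25.5%, 25.3% and 32.9% of all that were tested in this way.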
